A study of Mus musculus with 8 samples.

Results

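The urea cycle genes described here are the 9 genes for the enzymes of the cycle, for the activator of its first step and for the mitochondrial carriers that serve it: Nags, Cps1, Otc, Ass1, Asl, Arg1, Arg2, Slc25a15 and Slc25a13. A gene was represented by a probe set of the MoGene 2.0 ST array (a microarray of short probes spread along mouse transcripts) to which the platform annotation gives only that gene's symbol, and where there were several, by the one with the highest mean over the 8 arrays. All 9 genes had such a probe set and passed the filter on low signals, and they are 9 of 13845 genes tested. Nags had 2 probe sets, of which 17256882 was used, and the others had 1 each: Cps1 17213894, Otc 17533253, Ass1 17369487, Asl 17453179, Arg1 17239845, Arg2 17276776, Slc25a15 17508036 and Slc25a13 17464672.

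The arrays measured RNA of primary hepatocytes, liver cells placed in culture after isolation, from male C57BL/6J mice. The 4 groups were cells given 100 nM glucagon together with 2 µM GW4064, cells given 100 nM glucagon, cells given 2 µM GW4064 and cells given the solvent DMSO, each for 6 h. Glucagon is the pancreatic hormone of fasting and acts on hepatocytes through a receptor that raises cyclic AMP, whereas GW4064, a synthetic compound, activates FXR, the nuclear receptor for bile acids. All groups shared a medium that held 100 nM dexamethasone, a synthetic glucocorticoid. There were 2 experiments, each with pooled cells of 3 mice divided over the 4 treatments, so that each group had 2 arrays, 1 from each cell pool. The material of 2 technical replicates was pooled for each array, and 300 ng of RNA was labelled. The mice behind 1 array are therefore averaged, and the spread between the arrays of a group is that between 2 cell pools.

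The urea cycle converts ammonia, which is toxic, into urea, which the kidney excretes. In mitochondria ammonia enters carbamoyl phosphate and then citrulline, citrulline leaves for the cytosol, where aspartate brings the other nitrogen, and arginine is finally split into urea and ornithine, which returns to the mitochondrion. The whole cycle runs mainly in the hepatocytes around the portal vein, and in animals its capacity is known to grow in fasting and on a protein-rich diet, when amino acids are broken down for glucose production, with glucagon, cyclic AMP and glucocorticoids among the known signals.

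Promoter sequences are shown for the carrier gene with the largest glucagon difference of the 9, Slc25a15, and for the members in whose promoters a searched motif was found. The RefSeq promoter table for the build GRCm38.p6 holds 5 of the 9 members (Nags, Otc, Ass1, Slc25a15 and Slc25a13) with 6 promoters, each running from 250 bases before to 50 bases after a transcription start. Each promoter was searched on both strands for the full cyclic AMP response element (TGACG followed directly by TCA), its core site TGACG, an FXR inverted repeat (AGGTCA, any base, TGACCT), an HNF4 direct repeat (AGGTCA, any base, AGGTCA), a glucocorticoid element (AGAACA, 3 bases of any kind, TGTTCT), a C/EBP site (TTGC followed directly by GCAA) and the TATA box TATAAA. A full element also contains the core site and counts for both. Capitals below mark the core site, which reads CGTCA where it lies on the opposite strand.
Slc25a15, first start, chr8:22398572-22398871, minus strand: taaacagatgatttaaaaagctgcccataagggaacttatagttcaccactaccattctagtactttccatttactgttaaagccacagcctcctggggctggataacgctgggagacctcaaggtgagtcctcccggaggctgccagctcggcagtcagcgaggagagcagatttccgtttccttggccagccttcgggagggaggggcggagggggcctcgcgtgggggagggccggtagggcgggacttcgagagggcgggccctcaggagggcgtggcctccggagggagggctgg
Slc25a15, second start, chr8:22398228-22398527, minus strand: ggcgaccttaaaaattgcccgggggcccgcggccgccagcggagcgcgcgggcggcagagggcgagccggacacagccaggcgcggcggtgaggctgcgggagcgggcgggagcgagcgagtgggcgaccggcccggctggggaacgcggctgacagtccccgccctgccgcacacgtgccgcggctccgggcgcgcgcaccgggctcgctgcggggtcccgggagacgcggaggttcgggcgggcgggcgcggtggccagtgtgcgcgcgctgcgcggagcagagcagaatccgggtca
Slc25a13, chr6:6217124-6217423, minus strand: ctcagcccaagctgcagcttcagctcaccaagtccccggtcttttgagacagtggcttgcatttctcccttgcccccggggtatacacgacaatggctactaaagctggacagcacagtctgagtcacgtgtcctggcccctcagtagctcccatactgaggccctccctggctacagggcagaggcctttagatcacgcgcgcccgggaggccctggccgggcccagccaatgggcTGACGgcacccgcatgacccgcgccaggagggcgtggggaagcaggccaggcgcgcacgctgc
Nags, chr11:102145263-102145562, plus strand: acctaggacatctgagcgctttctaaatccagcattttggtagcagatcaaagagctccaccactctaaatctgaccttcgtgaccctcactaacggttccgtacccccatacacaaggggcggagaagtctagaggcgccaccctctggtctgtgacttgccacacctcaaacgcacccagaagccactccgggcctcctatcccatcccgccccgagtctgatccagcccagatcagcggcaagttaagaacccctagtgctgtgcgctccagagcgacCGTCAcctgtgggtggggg
The core site was present in 2 of the 6 member promoters. In Slc25a13 it began 13 bases before the start (position -13), and in Nags it lay at position 32 after the start on the opposite strand. Among all 32851 promoters of the table, 20.81% held the core site. None of the 6 member promoters held any of the other 6 motifs, which were found in 1.79% of all promoters for the full cyclic AMP response element, 13.62% for the TATA box, 0.183% for the C/EBP site, 0.0396% for the HNF4 direct repeat and 0.00913% for each of the FXR repeat and the glucocorticoid element. The Slc25a15 windows had GC contents of 60.67% and 79%, and neither held a searched motif. These matches describe letters in a window, and binding was not measured.

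Values are log2 signals as the authors deposited them, so a difference of 1 is a doubling. Array medians lay between 3.42 and 3.57. The 40th percentile of an array, which served as the filter level, was 3.13 to 3.17 on 7 arrays and 3.27 on the GW4064 array of experiment 2. That array stood apart from the rest: its correlations with the others over the tested genes were 0.975 to 0.985, against 0.976 to 0.997 among the other 7. All 6 hepatocyte markers examined lay above the filter level on every array, and Alb, the albumin gene, averaged 13.03 ± 0.06 with glucagon and 13.05 ± 0.06 without (SD, n = 4 each). Of the markers of Kupffer cells, the liver's macrophages, Cd68 averaged 10.51 ± 0.27 with glucagon and 10.29 ± 0.26 without (SD, n = 4 each), while the more specific Clec4f averaged 3.18 ± 0.10 and 3.01 ± 0.19, at the filter level. In such mixed RNA, fewer cells of a type and less RNA per cell cannot be told apart.

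Slc25a15 rose with glucagon in every comparison that tested it, and was the only one of the 9 genes to pass in the model without the experiment. It encodes the carrier that exchanges cytosolic ornithine for mitochondrial citrulline and so joins the compartments of the cycle. Its log2 signal was 10.46 in experiment 1 and 10.63 in experiment 2 with glucagon and GW4064, 10.31 and 10.48 with glucagon, 7.68 and 7.59 with GW4064, and 7.39 and 7.45 with DMSO. The 4 arrays with glucagon lay at 10.31 or higher and the 4 without at 7.68 or lower, with no overlap.

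The 2 glucagon comparisons without shared arrays gave nearly the same size for Slc25a15. Group means were 10.54 ± 0.12 with both agents and 7.63 ± 0.07 with GW4064, and 10.40 ± 0.12 with glucagon and 7.42 ± 0.04 with DMSO (SD, n = 2 each). The difference was 2.91 for both agents against GW4064 (SE 0.13, 95% interval 2.60 to 3.21, limma adjusted p = 0.00109) and 2.98 for glucagon against DMSO (SE 0.13, limma adjusted p = 0.00093). Over all 4 glucagon arrays against all 4 without, the difference was 2.94 (SE 0.09), a fold of 7.69 (limma adjusted p = 8.9e-05). In the 4 pairs of arrays from the same cell pool it ranged from 2.78 to 3.04. The change ranked at place 8 by size among the 13845 genes in that comparison.

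Arg1, the cytosolic arginase that splits arginine into urea and ornithine, had the next largest difference with glucagon, beside a large difference between the cell pools. Its log2 signal was 9.98 in experiment 1 and 11.22 in experiment 2 with both agents, 10.41 and 11.45 with glucagon, 8.71 and 9.80 with GW4064, and 8.64 and 10.05 with DMSO. The glucagon arrays of experiment 1 lay near the arrays without glucagon of experiment 2, so the 4 with and the 4 without overlapped. Within a cell pool each glucagon array lay above its partner, by 1.27 to 1.77 in the 4 pairs.

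The test of Arg1 therefore turned on whether the cell pool was a term of the model. Over all arrays the difference was 1.46, a fold of 2.76, with an SE of 0.46 (limma adjusted p = 0.206) without the experiment and 0.09 (limma adjusted p = 0.000834) with it as a block. The same held for glucagon against DMSO, where the difference was 1.58 (limma adjusted p = 0.728 without and 0.00479 with the block). For both agents against GW4064 it was 1.34 (limma adjusted p = 0.523 without and 0.0109 with the block). In the model without the block, glucagon against DMSO ranged from 0.88 without the DMSO array of experiment 1 to 2.29 without that of experiment 2 when 1 array was left out. Both agents against GW4064 ranged from 0.72 without the array with both agents of experiment 2 to 1.96 without that of experiment 1. In these fits the group that lost an array held cells of 1 pool only, so the values include the difference between the pools. Within a pool the 4 pairs differed by 1.27 to 1.77.

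Slc25a13 and Cps1 were higher with glucagon by smaller amounts. Slc25a13, or citrin, exports aspartate from mitochondria for the step that Ass1 catalyses. Its log2 signal was 8.84 in experiment 1 and 9.30 in experiment 2 with both agents, 8.93 and 9.30 with glucagon, 8.20 and 8.59 with GW4064, and 8.29 and 8.66 with DMSO. All 4 glucagon arrays lay above all 4 without, and the difference within pairs was 0.64 to 0.70. Over all arrays the difference was 0.65, a fold of 1.57, with an SE of 0.17 (limma adjusted p = 0.144) without and 0.07 (limma adjusted p = 0.00691) with the block.

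Cps1 makes carbamoyl phosphate from ammonia and bicarbonate and is the first and rate-controlling enzyme of the cycle. Its log2 signal was 11.62 and 11.77 with both agents, 11.87 and 11.83 with glucagon, 11.28 and 11.39 with GW4064, and 11.23 and 11.33 with DMSO, in experiments 1 and 2 in each case. The groups with and without glucagon did not overlap, and pairs differed by 0.34 to 0.64. The mean difference was 0.46 (SE 0.09), a fold of 1.38 (limma adjusted p = 0.0624 without and 0.024 with the block). Without the GW4064 array of experiment 2 the limma adjusted p was 0.0499, and without that of experiment 1 it was 0.0493, both in the model without the block. Without any 1 of the other 6 arrays it was 0.119 to 0.285.

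Nags makes N-acetylglutamate, without which Cps1 is inactive. Its log2 signal was 6.76 in both experiments with both agents, 6.71 and 6.84 with glucagon, 6.41 and 6.25 with GW4064, and 6.35 and 6.59 with DMSO. The 4 arrays with glucagon again lay above the 4 without, but the mean difference of 0.36 (SE 0.10) did not pass the test (limma adjusted p = 0.15 without and 0.0715 with the block). The other Nags probe set, 17270060, was dim at 2.79 to 3.92.

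**Figure D1:**
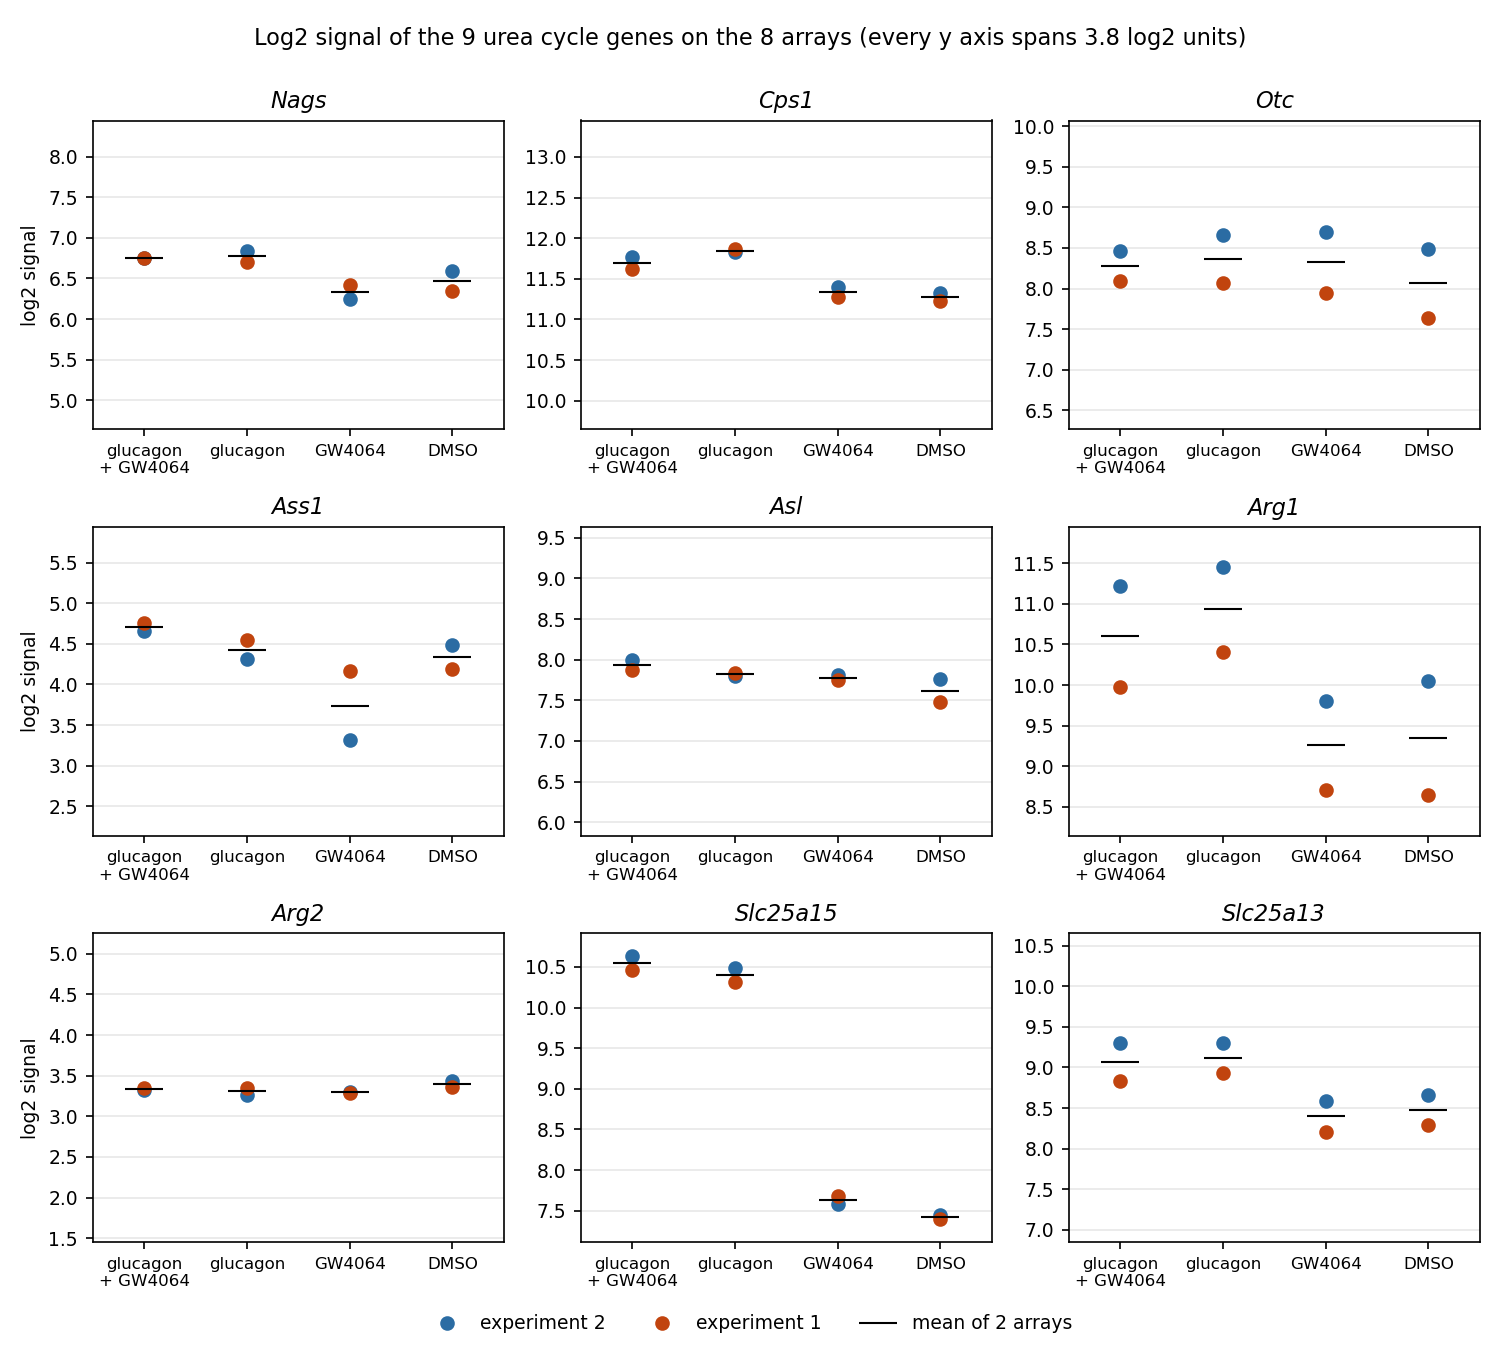
Log2 signal (y axis, each panel spanning 3.8 log2 units around its gene) of the 9 urea cycle genes on the 8 arrays, by treatment (x axis). Points are arrays, blue for experiment 2 and orange for experiment 1, and bars are means of 2 arrays. Slc25a15 separates by glucagon, from 10.31 upward with it and up to 7.68 without, while Arg1 and Otc are higher in experiment 2 than in experiment 1 under every treatment.

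Otc, Asl and Ass1, the remaining enzymes of the path from ornithine to arginine, did not pass the test for glucagon. Otc joins ornithine and carbamoyl phosphate to citrulline. Its difference over all arrays was 0.13, with an SE of 0.26 (limma adjusted p = 0.869) without and 0.10 (limma adjusted p = 0.506) with the block. Its log2 signal was 8.09 and 8.46 with both agents, 8.07 and 8.66 with glucagon, 7.94 and 8.70 with GW4064, and 7.64 and 8.49 with DMSO. Under every treatment the array of experiment 2 lay above that of experiment 1.

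Asl, which splits argininosuccinate into arginine and fumarate, had log2 signals of 7.87 and 7.99 with both agents, 7.84 and 7.80 with glucagon, 7.75 and 7.81 with GW4064, and 7.48 and 7.76 with DMSO. The groups with and without glucagon overlapped, and the difference was 0.18 (SE 0.10, limma adjusted p = 0.463 without and 0.279 with the block).

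Ass1, which joins citrulline and aspartate, had log2 signals of 4.76 and 4.66 with both agents, 4.54 and 4.32 with glucagon, 4.16 and 3.32 with GW4064, and 4.19 and 4.48 with DMSO. The lowest value, 3.32, came from the GW4064 array of experiment 2, the array that stood apart. The probe set was dim, at 3.32 to 4.76 against filter levels of 3.13 to 3.27. A missed call therefore does not show that Ass1 was unchanged. For both agents against GW4064 the difference was 0.97 (SE 0.27, limma adjusted p = 0.313 without and 0.14 with the block), 1.35 within experiment 2 and 0.60 within experiment 1. Without that array it was 0.55 (limma adjusted p = 0.297), and without the GW4064 array of experiment 1, so that the array that stood apart was alone in its group, it was 1.39 (limma adjusted p = 0.0184). For glucagon against DMSO the difference was 0.09 (SE 0.27, limma adjusted p = 0.999), with opposite signs in the 2 experiments, -0.17 in experiment 2 and 0.35 in experiment 1. Over all glucagon arrays it was 0.53 (SE 0.19, limma adjusted p = 0.262 without and 0.136 with the block), 0.74 (limma adjusted p = 0.0293) without the GW4064 array of experiment 1 and 0.32 (limma adjusted p = 0.195) without that of experiment 2.

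Arg2, the mitochondrial arginase found mainly outside the liver, stayed at the filter level. Its 8 log2 signals lay between 3.27 and 3.43, and the glucagon difference over all arrays was -0.02 (SE 0.08).

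Counted over the members, 1 of 9 (Slc25a15) rose in glucagon against DMSO, where 0.116% of all genes tested passed in either direction. The experiment as a block gave 2 of 9 (with Arg1), against 0.925% of all genes. For both agents against GW4064 the counts were 1 of 9, against 0.166% of all genes, and with the block 3 of 9 (Slc25a15, Arg1 and Slc25a13), against 1.06%. Over all glucagon arrays 1 of 9 rose, against 1.32% of all genes, and with the block 4 of 9 (also Cps1), against 5.76%. No member passed the test as lower in these comparisons. For all glucagon arrays the median difference of the 9 members was 0.46, and that of all genes tested was -0.004. All 4 glucagon arrays lay above all 4 without in 4 of 9 members (Slc25a15, Slc25a13, Cps1 and Nags), as in 6.07% of all genes.

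**Figure D2:**
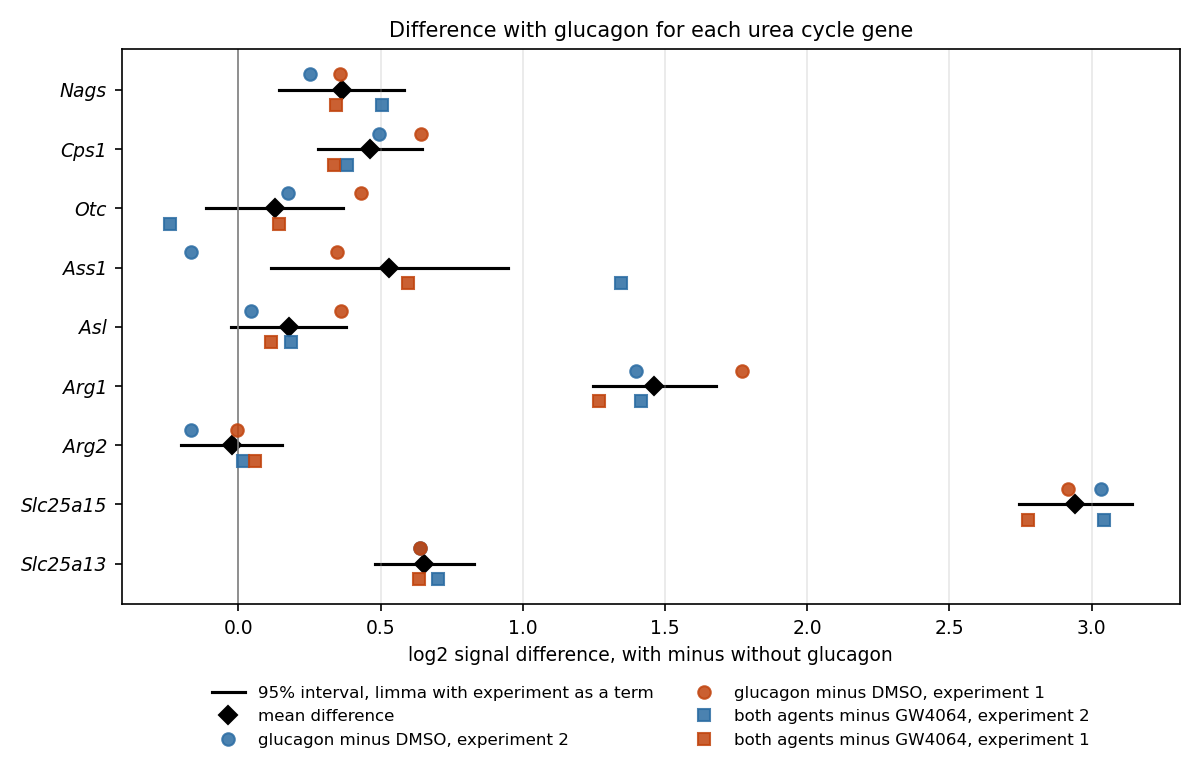
Log2 difference with minus without glucagon (x axis) for each urea cycle gene (y axis). Circles are glucagon minus DMSO and squares both agents minus GW4064, blue for experiment 2 and orange for experiment 1, and diamonds with lines are mean differences with their 95% intervals from limma with the experiment as a term. Slc25a15 lies at 2.94 and Arg1 at 1.46, while the squares of Ass1 range up to 1.35 in experiment 2.

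No member passed the test for GW4064 with all arrays in the model. No other gene passed either, so these tests cannot tell an unchanged member from a changed one. In GW4064 against DMSO, in both agents against glucagon and in all GW4064 arrays against all without, 0 of 9 members and 0% of all genes passed with limma, with or without the block. At an unadjusted p below 0.05, limma without the block found 0 members in each of the 3 comparisons, and 373, 90 and 216 genes of 13845 in that order. With the block it found 1 member in GW4064 against DMSO (Ass1), 1 in both agents against glucagon (Arg1) and 0 over all arrays, and 720, 194 and 447 genes. Over all arrays the member differences ran from -0.21 for Arg1 to 0.18 for Slc25a15, around a median of -0.05, and the median of all genes was -0.02. No member had all 4 GW4064 arrays above all 4 without, as 0.571% of all genes had.

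The intervals show what sizes these arrays leave possible. For Slc25a15 the 95% interval of the GW4064 difference over all arrays was -0.04 to 0.40, and each of the 2 pools gave a positive difference, 0.14 in experiment 2 and 0.22 in experiment 1. For Cps1 the difference was -0.05 (95% interval -0.25 to 0.16). Arg1 had a 95% interval of -1.29 to 0.87, or of -0.43 to 0.01 with the block. Ass1 differed by -0.60 in GW4064 against DMSO (limma adjusted p = 0.999), and this was -1.17 in experiment 2 and -0.03 in experiment 1. Without the GW4064 array of experiment 2 it was -0.18 (limma adjusted p = 1), and without that of experiment 1 it was -1.02 (limma adjusted p = 0.0427).

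The glucagon difference with GW4064 was also set against that without it, as the interaction of both agents. No member and 0% of all genes passed with limma, with or without the block, while 149 genes and 0 members had an unadjusted p below 0.05 without the block, and 332 genes and 1 member (Ass1) with it. The interaction was -0.07 for Slc25a15 (95% interval -0.50 to 0.37), -0.21 for Cps1, -0.24 for Arg1 and 0.88 for Ass1 (95% interval -0.02 to 1.78, limma adjusted p = 1). In both agents against DMSO, which shares its arrays with the comparisons above, Slc25a15 rose by 3.12 (SE 0.13, limma adjusted p = 0.000664). It was the only member to pass of 9, against 0.123% of all genes. With the block Arg1 passed too (1.25, limma adjusted p = 0.899 without and 0.0143 with the block), against 0.737% of all genes. Leaving out 1 array moved that difference, in the model without the block, to 0.55 without the DMSO array of experiment 1 and to 1.96 without that of experiment 2. In both fits the DMSO group held cells of 1 pool only, so the values include the difference between the pools.

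The order of the 4 treatments was read from the group means for the 4 genes with a glucagon difference past the threshold in either fit. Slc25a15 ran from both agents (10.54) through glucagon (10.40) and GW4064 (7.63) to DMSO (7.42). The step between both agents and glucagon was 0.15 (95% interval -0.16 to 0.45) and that between GW4064 and DMSO 0.21 (95% interval -0.09 to 0.52), and neither passed the test. For Arg1 the order was glucagon (10.93), both agents (10.60), DMSO (9.35) and GW4064 (9.26), and for Cps1 it was glucagon (11.85), both agents (11.70), GW4064 (11.34) and DMSO (11.28). Slc25a13 had the order of Arg1, with 9.11, 9.07, 8.47 and 8.40. In none of these did neighbours on the same side of the glucagon step pass the test.

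The 2 experiments differed in 3 members. Each experiment held 1 cell pool, so the p-values below measure how steady a difference was over the 4 treatments. They do not measure the spread between pools, and a pool cannot be told apart from other features of its experiment. In a model with treatment and experiment as terms, Arg1 was higher in experiment 2 than in experiment 1 by 1.20 (SE 0.09), a fold of 2.29 (limma adjusted p = 0.00422), Otc by 0.64 (SE 0.10, limma adjusted p = 0.0226) and Slc25a13 by 0.40 (SE 0.07, limma adjusted p = 0.0343). Each was higher in experiment 2 under all 4 treatments, with ranges of 1.04 to 1.41 for Arg1, 0.37 to 0.85 for Otc and 0.37 to 0.46 for Slc25a13. Otc was the only member whose 4 arrays of experiment 2 (8.46 to 8.70) all lay above those of experiment 1 (7.64 to 8.09), 1 of 9, against 6.12% of all genes. The 3 of 9 called compare with 5.16% of all genes tested. When any array of the DMSO group, the glucagon group or the group with both agents was left out, Arg1 alone remained past the threshold. In these fits fewer of all genes passed as well. The differences were 1.12 to 1.25 for Arg1, 0.57 to 0.73 for Otc and 0.38 to 0.41 for Slc25a13.

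Slc25a15, Cps1, Nags and Asl differed between the pools by 0.05 to 0.11, Arg2 by -0.005 and Ass1 by -0.22, and none passed the test. For Slc25a15 the 95% interval was -0.12 to 0.28.

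Genes known to mark zones of the liver lobule moved with the pools too. Of 10 tested genes that mark the portal side, a list that includes Ass1, Asl, Arg1 and Cps1, 4 were higher in experiment 2: Arg1 itself, Hal, the histidine ammonia-lyase (1.33, SE 0.19), Cyp2f2, a cytochrome P450 (1.23, SE 0.11), and Pigr, the receptor that carries antibodies into bile (0.84, SE 0.14). Of 9 that mark the central side, Oat (0.91), Lhpp (0.68) and Cyp2e1 (0.64) were higher in experiment 2, and Cyp1a2 was lower (-0.59). Over all genes 5.16% passed in either direction. The median difference was 0.43 for the portal list and 0.25 for the central list, against -0.02 for all genes.

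Some markers of other liver cells also differed between the pools, and their part in the member differences was not tested. The summed linear signal of 6 endothelial markers was 158 to 176 in experiment 2 and 258 to 295 in experiment 1, with Lyve1 (-1.02) and Oit3 (-0.70) past the threshold of 5 tested. For 6 stellate cell markers the sum was 141 to 148 in experiment 2 and 94.0 to 104.0 in experiment 1. It was carried by Reln (0.84) and Dcn (0.67), which passed the threshold of 3 tested, while Pdgfrb differed by -0.06. The median log2 signal of the 6 was 3.03 to 3.09 in experiment 2 and 3.07 to 3.18 in experiment 1. For 6 Kupffer cell markers the sum was 1348 to 1871 in experiment 2 and 1140 to 1313 in experiment 1, carried by Cd68 (0.43). Cd68 and Marco (0.38) passed the threshold of 6 tested, and Clec4f differed by -0.07. The median log2 signal of the 6 was 3.19 to 3.29 in experiment 2 and 3.17 to 3.23 in experiment 1. The 6 hepatocyte markers summed to 26047 to 28319 in experiment 2 and 23166 to 26519 in experiment 1, with none past the threshold. Of the 6, 5 were higher in experiment 2, and the median difference was 0.25. The largest was that of Hnf4a (0.81), at 8.54 to 8.90 in experiment 2 and 7.49 to 8.19 in experiment 1.

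**Figure D3:**
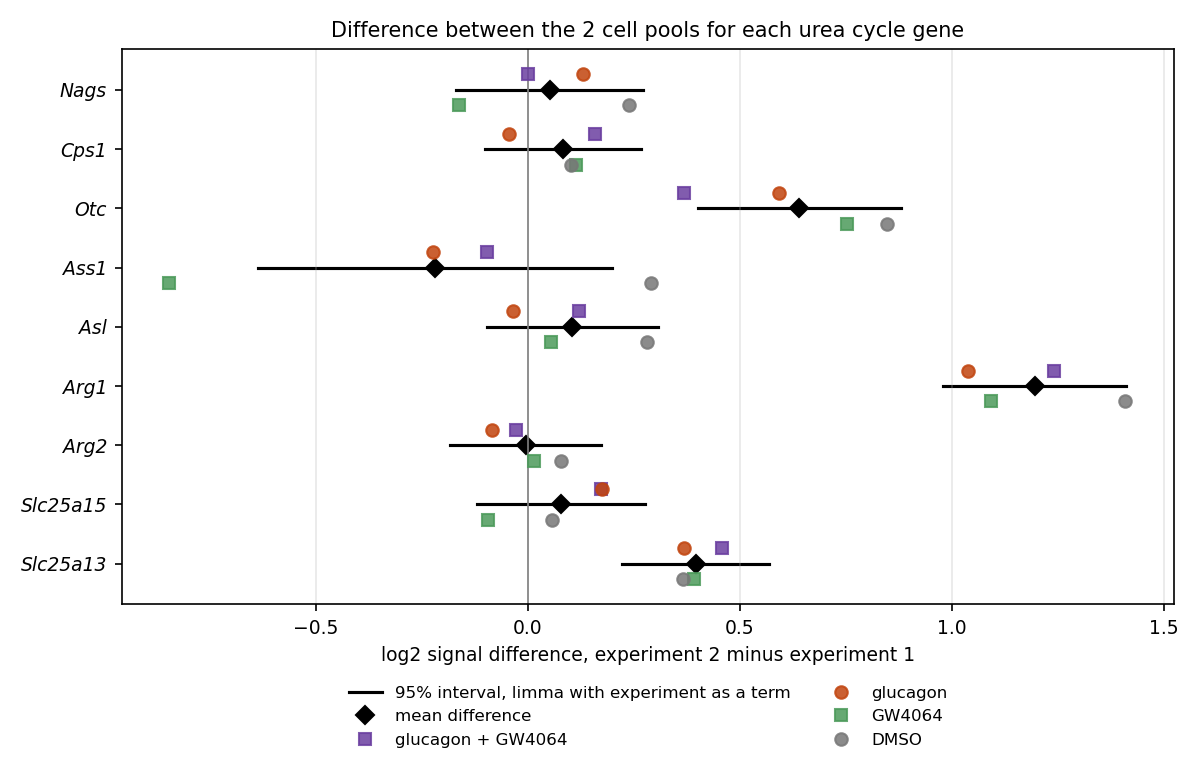
Log2 difference of experiment 2 minus experiment 1 (x axis) for each urea cycle gene (y axis). Coloured points are the 4 treatments, and diamonds with lines are mean differences with 95% intervals from limma with treatment and experiment as terms. Arg1 (1.20), Otc (0.64) and Slc25a13 (0.40) lie to the right of 0 under all 4 treatments.

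With glucagon, none of the tested markers of Kupffer cells (6), endothelium (5), stellate cells (3), bile duct cells (3) or lymphocytes and neutrophils (2) passed the test with or without the block. The summed linear signal of the bile duct markers was 79.3 to 97.6 in the glucagon arrays and 117 to 274 in those without, carried by Sox9 (-1.32, SE 0.32, limma adjusted p = 0.133 without and 0.0662 with the block). Its part in the glucagon differences of the members was not tested. Of the 6 hepatocyte markers 1 rose, Tat (0.83, SE 0.14, limma adjusted p = 0.0465), a tyrosine-degrading enzyme.

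Genes that feed the cycle or use its products were examined with the same fit over all glucagon arrays. The 4 lists overlap in no gene with the members. Nitrogen reaches the cycle as ammonia and as aspartate, both largely by way of glutamate. Beside the counts below, 1.32% of all genes tested passed without the block and 5.76% with it, in either direction. Of 12 tested genes for the supply of ammonia and glutamate 2 rose, with and without the block. Slc25a22, a mitochondrial glutamate carrier, averaged 8.97 ± 0.12 with glucagon and 7.07 ± 0.09 without (SD, n = 4 each; difference 1.90, SE 0.09, limma adjusted p = 0.000305). Gpt2, the mitochondrial alanine aminotransferase, differed by 0.86 (SE 0.08, limma adjusted p = 0.00822). Not past the threshold were Glud1, the glutamate dehydrogenase that releases ammonia (0.26), Gpt, the cytosolic alanine aminotransferase (0.45), and Asns, the asparagine synthetase (-0.31). The list's median was 0.09.

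Fumarate that leaves the cycle returns to aspartate through fumarase, malate dehydrogenase and aspartate aminotransferase. Of 8 genes tested on this route 2 rose, with and without the block (all genes 5.76% and 1.32%). Got1, the cytosolic aspartate aminotransferase, averaged 11.79 ± 0.12 with glucagon and 10.50 ± 0.13 without (SD, n = 4 each; difference 1.29, SE 0.10, limma adjusted p = 0.00302). Fh1, the fumarase gene, differed by 1.15 (SE 0.10, limma adjusted p = 0.00589). Slc25a10, the dicarboxylate carrier (0.47), and Slc25a11, the oxoglutarate carrier (0.34), did not pass. The list's median was 0.33.

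Arginine and ornithine also leave the cycle for other paths. Of 9 tested of 16 listed genes 2 rose, against 1.32% of all genes, and 3 with the block, against 5.76%. Slc7a2, a transporter that brings arginine, ornithine and lysine into the cell, averaged 10.49 ± 0.19 with glucagon and 7.99 ± 0.42 without (SD, n = 4 each; difference 2.49, SE 0.22, limma adjusted p = 0.00589). Oat, the ornithine aminotransferase, averaged 8.49 ± 0.48 with glucagon and 6.30 ± 0.63 without (SD, n = 4 each; difference 2.19, SE 0.36, limma adjusted p = 0.0392). Odc1, which makes putrescine from ornithine, differed by 0.46 and passed with the block alone (limma adjusted p = 0.382 without and 0.0481 with the block). Odc1 was also lower in experiment 2 than in experiment 1 (-0.50, limma adjusted p = 0.0425). It was not alone in this among the 4 lists. Asns was lower in experiment 2 too (-0.41, limma adjusted p = 0.0314), while Oat and, of the regulators below, Ppargc1a were higher. Over all genes 5.16% passed between the experiments. Azin2, an antizyme inhibitor (0.34), and Aqp9, a channel for glycerol and urea (-0.46), did not pass. The list's median was -0.01.

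Of 14 tested transcription factors, coactivators and receptors known to act on urea cycle genes or in the response to glucagon, 2 rose, against 1.32% of all genes, and 3 with the block, against 5.76%. Ppargc1a, the fasting coactivator PGC-1α, averaged 7.02 ± 0.43 with glucagon and 3.56 ± 0.53 without (SD, n = 4 each; difference 3.46, SE 0.30, limma adjusted p = 0.00589). Klf15, a transcription factor of amino acid breakdown, differed by 0.91 (SE 0.14, limma adjusted p = 0.0349). Foxa2, a liver transcription factor, differed by 0.62 (limma adjusted p = 0.0659 without and 0.0293 with the block). Nr1h4, the gene of FXR, on which GW4064 acts, differed by -0.56 (SE 0.15, limma adjusted p = 0.146 without and 0.0675 with the block). Medians were 0.07 for this list and -0.004 for all genes. No gene of the 4 lists passed the test as lower with glucagon, with or without the block.

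**Figure D4:**
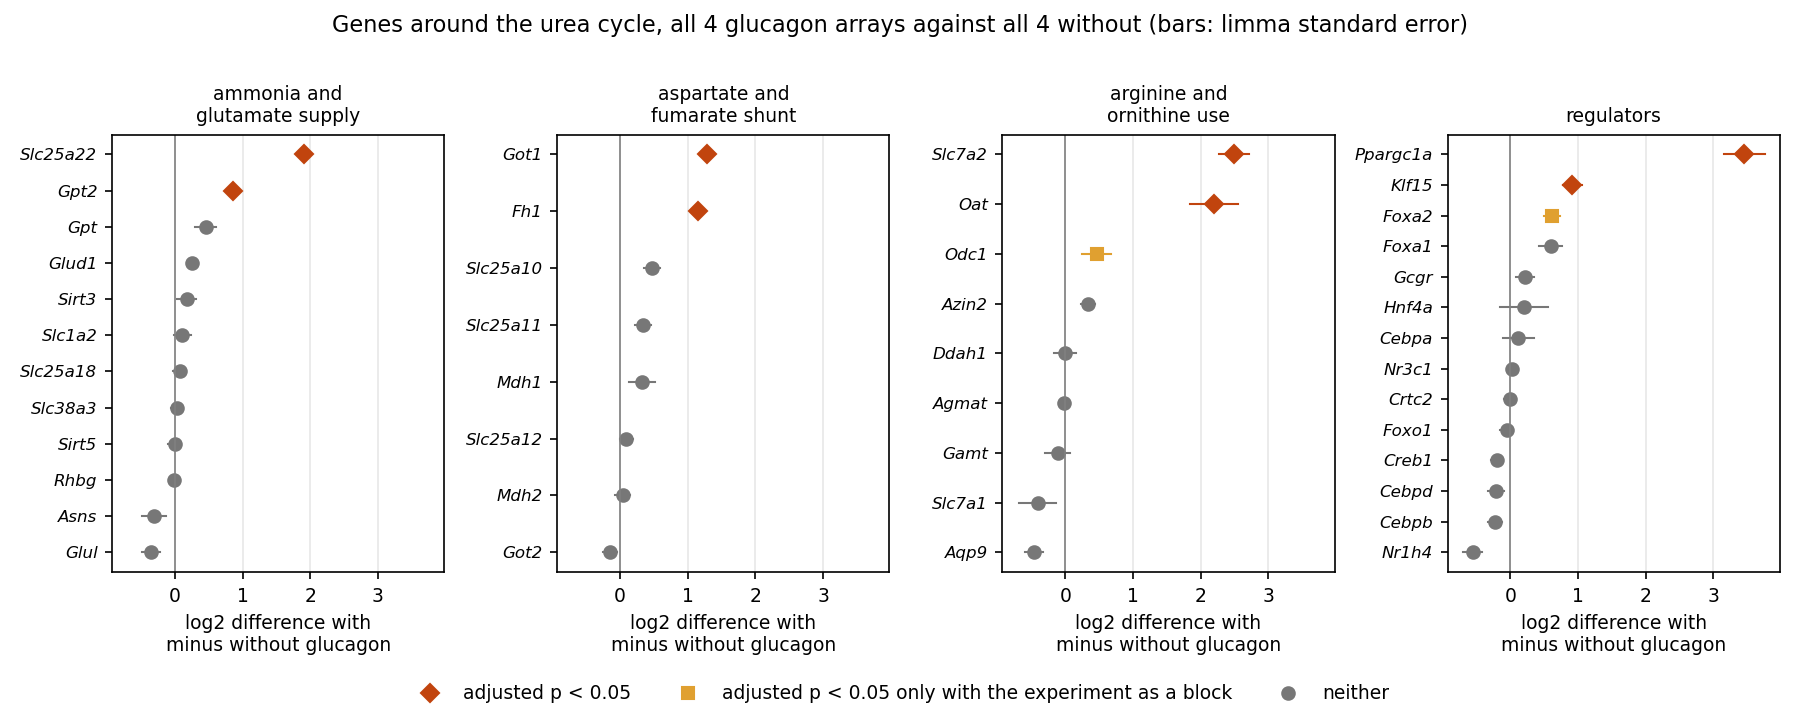
Log2 difference of all 4 glucagon arrays against all 4 without (x axis) for the tested genes of 4 lists around the urea cycle (y axis, 1 panel per list). Bars are limma standard errors, red diamonds passed the threshold without the block, orange squares only with the experiment as a block, and grey circles in neither fit. Ppargc1a (3.46), Slc7a2 (2.49), Oat (2.19) and Slc25a22 (1.90) lie farthest to the right.

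Likeness to each member was measured over the 8 arrays as the root mean square difference between mean-centred log2 profiles. For Slc25a15 the nearest genes were Aass (0.26), Slc7a2 (0.41) and Gm15998 (0.45), against an SD of Slc25a15 itself over the arrays of 1.48. For Arg1 they were Plin4 (0.18), Gys1 (0.21) and Plekhb1 (0.24), against its own SD of 0.96. For Slc25a13, with an SD of 0.38, they were Smoc1 (0.07), Gjb2 (0.09) and Impact (0.10). For Otc, with an SD of 0.35, they were Tmprss6 (0.07), Lcat (0.09) and Uox (0.09). No other member was among the 3 nearest genes of any member. The nearest genes of the other members were Sqle for Cps1 (0.07), Rnf34 for Nags (0.06), Abhd10 for Asl (0.04), Luc7l3 for Arg2 (0.03) and Nudt22 for Ass1 (0.13). Likeness in these 8 arrays says nothing of shared control.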

How the data were processed

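RNA of 8 samples in 4 groups was measured on MoGene 2.0 ST arrays, processed by the authors with GeneSpring, per the labels. The deposited values are log2 signals: the authors' table names no scale, and log2 was read from its range. The sources used here do not give GeneSpring's version, background correction, summarisation, normalization or the genome build. Of 41345 probe sets, 23521 carry 1 gene symbol, 1814 several and 16010 none. Probe sets above the 40th percentile of their array on at least 2 arrays were kept (27338, of which 14639 have 1 symbol), and the one with the highest mean stood for a gene (615 genes had several), which left 13845 genes. No measured column was left unused. All 9 member symbols equal the RefSeq symbol of their gene identifier.

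Differences were fitted with limma 3.58.1 in R 4.3.3, with a mean for each group and all 8 arrays in the model (residual degrees of freedom 4, prior 3.06), and tested two-sided with empirical Bayes moderation. The Benjamini-Hochberg adjustment ran over the 13845 genes of a comparison, with a threshold of 0.05. The replicate number is the experiment, which the labels describe as a shared pool of cells, so same-numbered arrays are paired, and their deviations from group means correlated at 0.350 to 0.620 over the 6 pairs of groups. A fit with the experiment as a block (3 residual and 3.58 prior degrees of freedom) stands beside the main one where it changes a call or a count. The comparison of the experiments used that fit. SD is over arrays, and 2 arrays per group limit the precision. SE is limma's, from the fit without the block except where stated and in the comparison of the experiments. Intervals are 95% limma intervals.

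The members and lists were chosen with earlier results of these data known, so their counts are descriptions and no list was tested as a whole. All 9 members were named, with, of each list, the genes past the threshold in any comparison and up to 4 with the smallest p over all glucagon arrays, and the 3 nearest profiles of each member. The steps were tested on simulated data. Alternatives were the experiment as a fixed or random block, quantile normalization, other filters, other probe set rules, all probe sets, only the groups compared, trended robust variances and leaving out each array.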

Additional observations from a re-analysis of the deposited data

Results flagged for a closer look

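In 4 results both arrays of 1 setting moved one way and both of the other the opposite way. Each rests on 2 pairs of arrays against 2. The GW4064 difference of Nags, over its pairs with and without glucagon, was negative in experiment 2 (-0.33 and -0.08) and positive in experiment 1 (0.05 and 0.07), and the mean difference between experiments was -0.27, which was not tested. The GW4064 difference of Cps1 was negative with glucagon (-0.25 and -0.05) and positive without it (0.05 and 0.06), a contrast of -0.21. That of Ass1 was positive with glucagon (0.22 and 0.35) and negative without it (-1.17 and -0.03), a contrast of 0.88, and its -1.17 comes from the GW4064 array of experiment 2 that stood apart. The glucagon difference of Arg2, a gene at the filter level, was positive with GW4064 (0.02 and 0.06) and negative without it (-0.17 and -0.004), a contrast of 0.12. The last 3 contrasts equal the interaction, whose limma adjusted p was 1 for each without and 1 with the block. With 2 arrays in a group, no array was tested for its gap to the others of its group.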

How the results depend on the processing

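The difference of Slc25a15 over all glucagon arrays kept its direction and call in the 17 alternatives run, at 2.89 to 2.99. Of 914 alternative values for 54 member differences, 846 kept direction and call. Counts over all genes, given below, moved under the same settings, so a changed count of members is not a result about the members alone. The experiment as a replicate block gave 2 called members (1 without it) for glucagon against DMSO and for both agents against DMSO, 3 (1 without it) for both agents against GW4064 and 4 (1 without it) for all glucagon arrays, and changed no other count. With the block and without the GW4064 array of experiment 2 these counts were 4, 3, 2 and 4. For all glucagon arrays the experiment as a random block gave 3 members beside 444 of 13845 genes. Trended robust variances gave 2 members beside 181 genes. Leaving out 1 array, which assumes that the lone array left in a group varies like the others, gave 1 to 2 called members for both agents against GW4064, 1 to 3 for all glucagon arrays and 0 to 1 for GW4064 against DMSO. For the experiments the count was 1 to 3 when an array was left out, and 1 (Arg1) with all probe sets.

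Directions reversed for small differences. In the model without the block, leaving out 1 array moved Otc to between -0.12 and 0.73 for glucagon against DMSO. Otc moved to between -0.43 and 0.33 for both agents against GW4064, between -0.085 and 0.34 for all glucagon arrays and between -0.21 and 0.63 for both agents against DMSO. In these fits a group that lost an array held cells of 1 pool only. Ass1 moved to between -0.054 and 0.24 for glucagon against DMSO and between -0.37 and 0.053 for all GW4064 arrays. Arg1 moved to between -0.56 and 0.14 for all GW4064 arrays and between -0.95 and 0.46 for the interaction, and Slc25a15 to between -0.15 and 0.020 for the interaction. Between experiments Nags moved to between -0.011 and 0.12 and Arg2 to between -0.033 and 0.021. With the block and without the GW4064 array of experiment 2, Otc was 0.026 for both agents against GW4064 and Ass1 0.050 for all GW4064 arrays. With the mean of its probe sets Nags was -0.061 for both agents against DMSO and -0.061 between experiments. The cause was not tested.

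Counts over all genes moved more. For glucagon against DMSO 16 genes were called, 59 with the random block, 438 with the block and without that array, 9 with only the groups compared, 9 with all probe sets and 2 to 27 with an array left out. For both agents against GW4064 the counts in that order were 23, 75, 190, 3, 9 and 2 to 759, and for both agents against DMSO 17, 48, 342, 9, 8 and 2 to 24. For all glucagon arrays 183 genes were called, 444 with the random block, 1454 with the block and without that array, 69 with all probe sets and 25 to 702 with an array left out. With the fixed block the counts were 128, 147, 102 and 797. For the experiments 715 were called, 26 with all probe sets and 26 to 728 with an array left out. For GW4064 the count of 0 became 406 in GW4064 against DMSO without the GW4064 array of experiment 1, and 3 for all GW4064 arrays with the block and without that of experiment 2. A group of 2 arrays limits what these tests can call, and Arg2, as well as Ass1 on the GW4064 array of experiment 2, lies near the filter level. The Ass1 probe set lay at 3.32 to 4.76 over the 8 arrays, against filter levels of 3.13 to 3.27.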

Other observations

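The lists for the sides of the liver lobule were also read for glucagon, since the urea cycle is a portal pathway. Of 10 tested portal genes 1 rose over all glucagon arrays, Pck1, the rate-limiting enzyme of glucose production. It averaged 9.44 ± 0.13 with glucagon and 4.29 ± 0.59 without (SD, n = 4 each; difference 5.15, SE 0.28, limma adjusted p = 0.000571). Over all genes 1.32% passed in either direction, and 5.76% with the experiment as a block. With the block 4 portal genes rose: Pck1, Hal (1.95, limma adjusted p = 0.158 without and 0.00411 with the block), Arg1 and Cps1. Of 9 tested central genes Oat rose in both fits, and Lhpp, a phosphatase (1.52, limma adjusted p = 0.0545 without and 0.000458 with the block), in the blocked one. Glul, the glutamine synthetase that takes up ammonia the urea cycle has left, differed by -0.35 (limma adjusted p = 0.284 without and 0.0517 with the block). The portal list holds the members Ass1, Asl, Arg1 and Cps1, so its counts and median are in part those of the members. The median difference was 0.32 for the portal list and -0.01 for the central list, against -0.004 for all genes.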
